A study of Micromonas commoda with 15 samples.

Results

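Iron was given to a marine green picoalga either as Fe2O3 nanoparticles or as dissolved FeCl3, and the messenger RNA of the exposed cultures was compared directly, particle against salt. The comparison rests on 6 of the 15 libraries of the series, chosen by their labels: 3 from cultures with Fe2O3 particles and 3 from cultures with FeCl3. All gene models of the deposited table entered it. The alga was Micromonas commoda, strain Noum17/RCC299, grown in L1 medium at 20 °C with 12 h of light and 12 h of darkness. Metals went into 140 ml flasks 24 h after these were set up in early exponential growth, and cells from 100 ml were harvested 48 h later. The labels give the particles as 3e-05 M with an iron concentration of 2.4 mg/L and say that FeCl3, 6H2O was matched to them in metal. By atomic mass 3e-05 M corresponds to 3.35 mg/L of iron if it counts Fe2O3 units and to 1.68 mg/L if it counts iron atoms. In the second case the mass of the oxide is 2.4 mg/L. Which amount the salt matched is therefore not settled. Reference values come from 3 control cultures with no added particle or salt, and from 6 zinc libraries. Of these, 3 had ZnO particles (1e-05 M, labelled 0.8 mg/L zinc) and 3 had ZnSO4. The zinc label was not checked against its molar value by atomic mass. The replicates are numbered in the labels, but nothing says whether a number stands for a separate culture, so p-values measure the spread between these libraries, which may be partly technical.

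Micromonas is among the smallest photosynthetic eukaryotes, a naked cell with a single chloroplast, a single mitochondrion and a flagellum. Its iron demand, like that of other algae, comes from photosystem I, the cytochromes and the iron-sulfur proteins of photosynthesis and respiration. Ferric oxide is a solid that dissolves very little in seawater. Ferric chloride dissolves and then hydrolyses to ferric hydroxides unless a chelator holds the iron, and L1 medium supplies chelated iron to every culture, the controls included. Neither particle size nor dissolved iron was analysed here.

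The values are counts of reads per gene model. They are given below as counts per 1000000 counts of a library (CPM) after TMM scaling, which corrects each library for its composition. Because CPM are relative to the library and each library pools many cells, fewer cells with a transcript and less of it per cell cannot be told apart. Total counts ran from 35773933 to 46840498 in the Fe2O3 particle libraries and from 44206961 to 48969454 in the FeCl3 libraries. The libraries grouped by label. The root mean square difference of log2 CPM over the models was 0.314 to 0.533 within the particle group and 0.279 to 0.499 within the FeCl3 group, against 0.946 to 1.09 between them. Replicate 3 of the particles and replicate 1 of FeCl3 lay farthest from the other libraries of their groups. The identifiers of the models are paired with no gene name in the files, and 0 of 10300 matched the RefSeq table, so the models are described by level and behaviour and not by function. At most a pair of identifiers is printed in each direction.

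Most of the measured transcriptome differed between the forms of iron. Of 10012 models tested, 5532 passed (55.3%) when edgeR's quasi-likelihood test was read at an adjusted p of 0.05, against 6055 (60.5%) at an unadjusted p of 0.05. With Fe2O3 particles 2755 models were higher than with FeCl3 (27.5%) and 2777 were lower (27.7%). Most of the differences were moderate. Of the models called, 3221 (58.2%) differed by less than 2-fold, and the median absolute log2 fold change of called models was 0.89. The median log2 fold change over all models tested was -0.024, a value that TMM scaling holds near 0. The split by direction moved with the scaling and the filter, to 2350 higher and 2862 lower with total counts only and to 2515 higher and 2067 lower at a mean of at least 5 CPM. In 5799 models (57.9%) the 3 particle libraries did not overlap the 3 FeCl3 libraries, 2876 of them with the particle libraries above (28.7%) and 2923 below (29.2%).

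The directions were more uneven in size than in number. With a minimum difference of 2-fold, 1322 models were higher (13.2%) and 989 lower (9.88%). With a minimum of 4-fold, 379 were higher (3.79%) and 94 lower (0.939%). At least 8-fold, 97 models were higher (0.969%) and 10 were lower (0.0999%). A rise of at least 16-fold was called in 17 models (0.17%), while the largest fall was 10.6-fold. The large rises included many scarce transcripts: 12 of the 17 averaged under 5 CPM in the 6 iron libraries, as did 48 of the 97. In the extreme case a model had 2 to 16 reads in the particle libraries and 0 in each FeCl3 library, so its fitted fold change depends on the prior count and is not printed. By that fitted value it is among the 17, the 97 and the 379. It was the only model tested that lacked reads in every library of either iron group. The unevenness stayed among the better measured models. With the models restricted to a mean of at least 5 CPM over all libraries, 238 were at least 4-fold higher and 53 at least 4-fold lower.

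**Figure D1:**
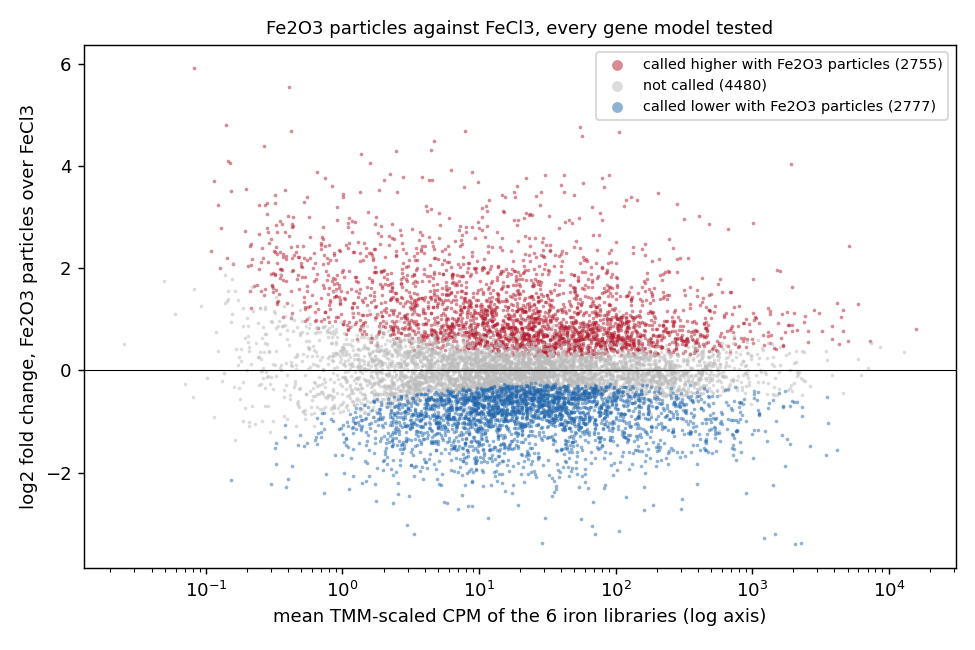
Log2 fold change of Fe2O3 particles over FeCl3 (y axis) against the mean TMM-scaled CPM of the 6 iron libraries (x axis, log scale), 1 point per gene model tested, coloured by the call at an adjusted p of 0.05. The 2755 higher models reach farther from 0 than the 2777 lower ones, most of all at low abundance.

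A model that fails the test need not be equal in both groups. For 2002 models the 95% interval of the fold change lay inside 1.5-fold in either direction, and 129 of these were called as small differences. The other 1873 are models whose levels with particles and with salt were close within the error of the measurement. A further 2607 models (26%) were neither called nor bounded in this way. The median standard error (SE) of a log2 fold change was 0.185.

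The rule for printed models took those that were called, had no overlap between the groups and averaged at least 5 CPM over the 6 libraries. The 10 models that rose most under this rule were mostly scarce in FeCl3 cultures, with a median of 92.4 CPM with particles and 4.26 CPM with FeCl3. The top riser was wlab.230984.1. It stood at 73.9, 123 and 122 CPM with Fe2O3 particles, against 1.74, 5.02 and 5.13 CPM with FeCl3. The lowest particle library was thus far above the highest FeCl3 library, although FeCl3 replicate 1 lay below the other libraries of its group. In this model replicate 1 was the lowest library of every group, the zinc and control groups included. The mean was 106 ± 28.3 CPM with particles and 3.96 ± 1.92 CPM with FeCl3 (SD, n = 3 each), a 27-fold difference (log2 fold change 4.76, SE 0.613, edgeR quasi-likelihood adjusted p 1.12e-05). Control cultures held 10.8 ± 7.91 CPM, with 2.72, 11.2 and 18.5 CPM in single libraries. The log2 fold change was 3.31 (SE 0.57) for particles over control and -1.45 (SE 0.562, edgeR adjusted p 0.0475) for FeCl3 over control. The last value was not called under 8 of 14 other settings and became -1.06 without FeCl3 replicate 1 (edgeR adjusted p 0.191). These comparisons share the control libraries.

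The next riser, wlab.1800.1, was close to silent with FeCl3 and in control cultures. It had 14.3, 13.1 and 18 CPM with Fe2O3 particles, against 0.421, 0.663 and 0.688 CPM with FeCl3 and 0.186, 0.17 and 0.288 CPM in control cultures. The FeCl3 values rest on 22 to 30 reads per library and the particle values on 473 to 888. The log2 fold change of particles over FeCl3 was 4.68 (SE 0.276, edgeR quasi-likelihood adjusted p 8.27e-09). Here the 3 groups did not overlap and FeCl3 lay between particles and control.

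Over those 10 largest rises by this rule, log2 fold changes ran from 3.82 to 4.76. The mean level was 11.7 to 3603 CPM with Fe2O3 particles and 0.591 to 219 CPM with FeCl3. In control cultures the same models averaged 0.215 to 291 CPM, and the control mean lay below both iron groups in 5 of the 10 and between them in the rest. The model with rank 5 stands out by its abundance. It reached 3903, 3859 and 3048 CPM with particles, against 185, 236 and 236 CPM with FeCl3 and 258, 246 and 370 CPM in control cultures. Its level with particles was 16.4 times that with FeCl3 (4.04 on the log2 scale, SE 0.208). Every FeCl3 library lay below every control library. That difference was much smaller and was not called (log2 fold change of FeCl3 over control -0.41, edgeR quasi-likelihood adjusted p 0.0819). The 10 models together took 0.403% to 0.427% of the counts of a particle library and 0.0236% to 0.027% of an FeCl3 library. In control libraries they took 0.0208% to 0.0365%.

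Several of the steepest falls under the same rule were in transcripts that were abundant in control cultures. The first, wlab.243021.1, stood at 411, 388 and 264 CPM with Fe2O3 particles, against 3697, 3935 and 3650 CPM with FeCl3. Control cultures held 17486, 8866 and 8684 CPM. The particle libraries were the lowest and the control libraries the highest, with no overlap between any of the 3 groups, and control replicate 1 stood well above the other controls. The mean was 354 ± 78.7 CPM with particles and 3761 ± 153 CPM with FeCl3 (SD, n = 3 each), a log2 fold change of -3.41 (SE 0.324, edgeR quasi-likelihood adjusted p 5.91e-07). Against control the log2 fold change was -5.04 (SE 0.35) for particles and -1.63 (SE 0.302) for FeCl3.

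The next, wlab.248033.1, followed another pattern. It had 8.11, 3.19 and 4.06 CPM with Fe2O3 particles, against 73.4, 36.2 and 49.6 CPM with FeCl3 and 98.9, 32.3 and 44.8 CPM in control cultures. FeCl3 and control libraries overlapped, and the particle libraries lay below both. The log2 fold change of particles over FeCl3 was -3.39 (SE 0.426, edgeR quasi-likelihood adjusted p 8.72e-06). For FeCl3 over control it was -0.14 (SE 0.379, edgeR adjusted p 0.777), a difference that this test did not call.

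**Figure D2:**
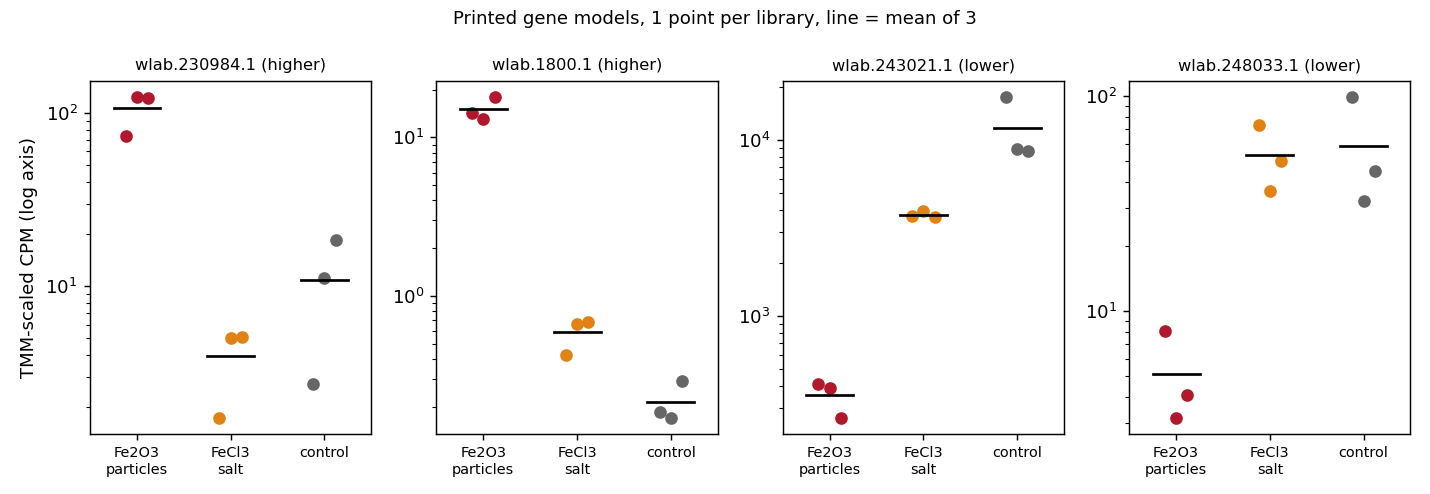
TMM-scaled CPM (y axis, log scale) of the 4 printed gene models in the 3 Fe2O3 particle, 3 FeCl3 and 3 control libraries, 1 point per library with a line at the group mean. The particle libraries lie apart from the FeCl3 libraries in all 4 models, while the place of the control libraries differs from model to model.

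In the 10 largest falls among models that passed the rule for printed models, the log2 fold changes ran from -3.41 to -2.89. The control mean was above both iron groups in 10 of the 10. Of these models 4 exceeded 1000 CPM on average with FeCl3, a limit chosen after their values were seen. Summed, these 4 had 894 to 1558 CPM with Fe2O3 particles, 11968 to 13494 CPM with FeCl3 and 29313 to 60577 CPM in control cultures. They took 0.0944% to 0.145% of the counts of a particle library, 1.24% to 1.31% of an FeCl3 library and 2.44% to 4.29% of a control library. Whether they are near-identical gene copies that share reads cannot be told from the table, so the 4 may not be separate observations.

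The models called with a difference of at least 2-fold changed their share of the libraries by about 10 percentage points in each direction. The 1322 higher models held 15.8% ± 0.286 of the counts in particle libraries, 5.86% ± 0.6 in FeCl3 libraries and 4.8% ± 0.436 in control libraries (SD, n = 3 each). The 989 lower models held 5.23% ± 0.0978 in particle libraries, 15.2% ± 0.807 in FeCl3 libraries and 19.9% ± 1.11 in control libraries. The sets were picked by the contrast itself, so these shares describe its scale and test nothing. In both sets the FeCl3 libraries lay nearer to the control libraries than to the particle libraries. The 4480 models that were not called held 43.4% ± 1.45 with particles and 45% ± 1.26 with FeCl3.

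**Figure D3:**
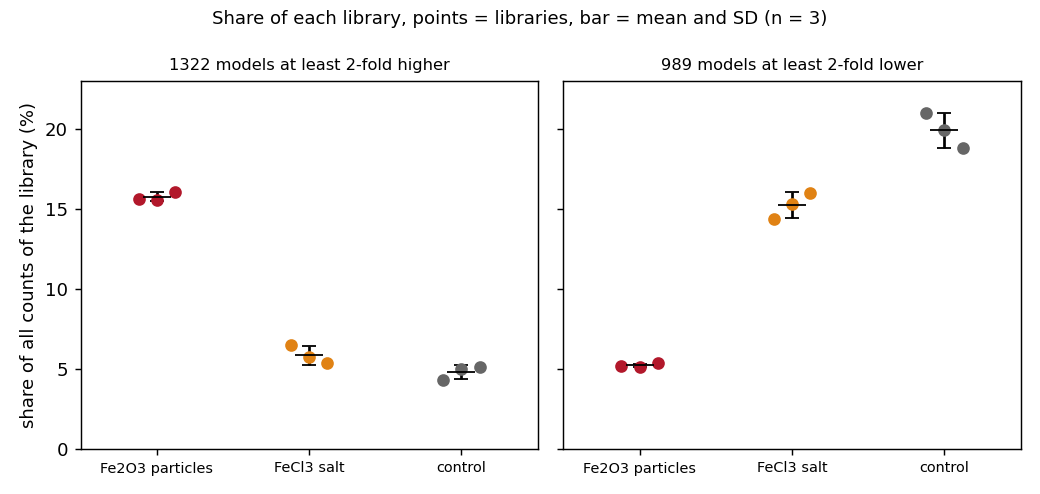
Share of all counts of a library (y axis, percent) held by the models at least 2-fold higher (left) and at least 2-fold lower (right) with Fe2O3 particles than with FeCl3, in particle, FeCl3 and control libraries. Points are libraries and bars give the mean and SD of 3, from 15.8% against 5.86% on the left to 5.23% against 15.2% on the right.

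The control level showed how these differences lay relative to unexposed cells. Of the 1322 models at least 2-fold higher with particles, the control mean was below both iron groups in 789 (59.7%), between them in 524 (39.6%) and above both in 9. Of the 989 models at least 2-fold lower, it was above both in 683 (69.1%), between them in 299 (30.2%) and below both in 7. Over all models tested it was below both in 38.8%, between in 24.2% and above both in 37%. Over all models tested, the particles were within 1.5-fold of control in 38.9% and FeCl3 in 64.7%. Among the higher models, the particles were within this range in 5.45% and FeCl3 in 57.9%. Among the lower models these shares were 6.17% for the particles and 51.4% for FeCl3, so that both were below the shares over all models in either direction. The median log2 fold change against control in the higher models was 1.88 for Fe2O3 particles and 0.19 for FeCl3, and in the lower models -1.76 for particles and -0.43 for FeCl3. Choosing models by the difference between particle and salt favours those in which one of them departs from control, so the split is a description.

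The place of FeCl3 was also counted for the largest differences. In the 94 models at least 4-fold lower with particles, the median log2 fold change against control was -3.18 for particles and -0.89 for FeCl3, and the control mean was above both in 84%. In the 379 models at least 4-fold higher the medians were 2.63 for particles and 0.052 for FeCl3, and the control mean was below both in 52% and between them in 48%. The share of models in which FeCl3 stayed within 1.5-fold of control was 35.1% among these falls and 57.5% among these rises, both below the 64.7% over all models. These shares were set side by side without a test of their difference.

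The share of models called, and its split by direction, varied with abundance. Models were divided into 10 classes of about 1001 models each by their mean CPM over all 15 libraries. In the lowest class (0.092 to 2.1 CPM) 31.7% were higher with Fe2O3 particles and 9.88% were lower, a median log2 fold change of 0.37. In the 9 classes above it the shares ran from 23.1% to 33.9% higher and from 23.1% to 36.3% lower, and the medians lay between -0.12 and 0.021. The lowest class held 132 of the 379 models at least 4-fold higher and 12 of the 94 at least 4-fold lower. Its models are the least precisely measured, with a median SE of 0.37 against 0.147 to 0.251 in the other classes. Without replicate 3 of the particles, the shares in this class were 26.1% higher and 13.8% lower.

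**Figure D4:**
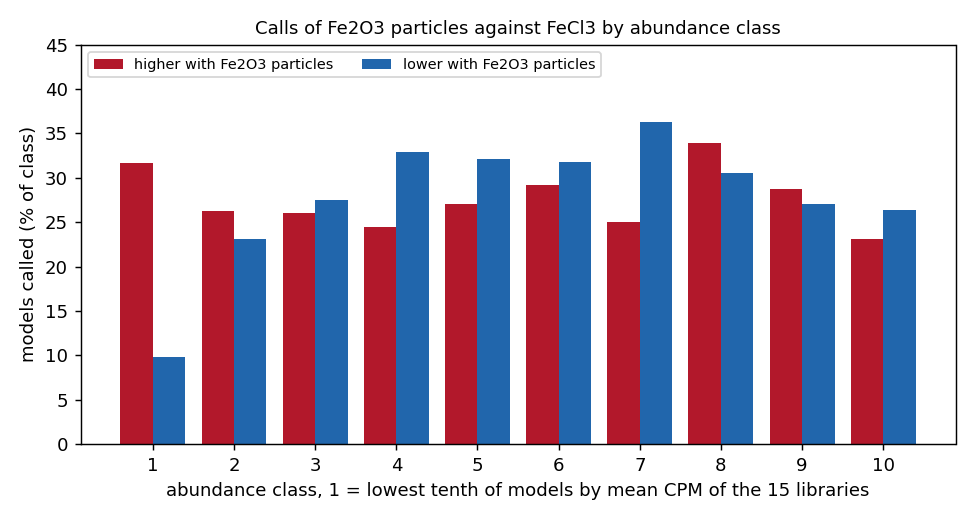
Percent of models called in either direction between Fe2O3 particles and FeCl3 (y axis) in 10 abundance classes from the scarcest to the most abundant (x axis), about 1001 models each. The lowest class has 31.7% higher against 9.88% lower, while in the other classes the shares lie closer together.

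The detection of scarce transcripts was compared by library. The lowest class summed to 1015, 1009 and 1416 CPM in the particle libraries, against 993, 902 and 874 CPM in the FeCl3 libraries. Particle replicate 3 held most, and the lowest particle library was only slightly above the highest FeCl3 library. As a share of the counts without TMM scaling the groups overlapped, at 0.0942%, 0.0915% and 0.149% with particles, against 0.106%, 0.0875% and 0.0833% with FeCl3. Models with no read numbered 104, 96 and 63 with particles, against 130, 142 and 173 with FeCl3, and 215, 189 and 208 in control cultures. Models of at least 1 CPM numbered 9377 to 9546 with particles and 9316 to 9342 with FeCl3. Neither count overlapped between the iron groups, nor did the TMM-scaled sum. Each had an exact two-sided permutation p of 0.1, the smallest that 3 against 3 libraries allow. Total counts overlapped between the groups, and the part of depth in these counts was not tested.

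A small class of models, defined after the values were seen, was near silent with FeCl3 and expressed with particles. In 7 models every FeCl3 library was under 1 CPM and every particle library at least 5 CPM, wlab.1800.1 among them. They had 12 to 46 reads in an FeCl3 library and 208 to 888 in a particle library, and were 13.2-fold to 25.7-fold higher with particles. Control libraries ran from 0.0928 to 1.69 CPM in these models, and in 4 of the 7 all 3 controls were under 1 CPM. No model met the reverse definition, with 1 appearing when FeCl3 replicate 1 or replicate 2 was left out. With ZnO particles the 7 models ran from 3.26 to 21.2 CPM, and with ZnSO4 from 0.405 to 9.93 CPM.

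At the other end, the most abundant transcripts held a larger share of every particle library than of any FeCl3 library. The 100 models of highest mean CPM over the 6 libraries held 30.4% ± 0.226 of the counts with Fe2O3 particles and 27% ± 0.312 with FeCl3 (SD, n = 3 each; exact permutation p of 0.1, the smallest possible). Of these 100 models 38 were higher (15 of them at least 2-fold), 23 lower (11 at least 2-fold) and 39 not called, with a median log2 fold change of 0.18. Over all models tested 27.5% were higher (13.2% at least 2-fold) and 27.7% lower (9.88% at least 2-fold), close to several of these counts. With total counts only, 37 of the 100 were higher and 32 lower, so the split depends on the scaling. The 10 most abundant held 9.5% ± 0.231 with particles and 6.54% ± 0.313 with FeCl3. Among these 10, 4 were higher with particles, 6 were not called and none was lower. Their exact permutation p was also 0.1.

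Single members of this group moved by very different amounts. The most abundant model averaged 20113 ± 2390 CPM with particles and 11513 ± 1490 CPM with FeCl3 (SD, n = 3 each), a 1.75-fold difference. The model with abundance rank 10 had 8872, 9472 and 7469 CPM with particles, against 1378, 1685 and 1724 CPM with FeCl3 and 1672, 1466 and 1462 CPM in control cultures. Its level with particles was 5.39 times that with FeCl3 (2.43 on the log2 scale, SE 0.17), and its FeCl3 and control libraries overlapped. The model with abundance rank 6 averaged 7235 ± 775 CPM with particles and 6961 ± 390 CPM with FeCl3, a log2 fold change of 0.056 (SE 0.178, edgeR quasi-likelihood adjusted p 0.808). Both iron groups lay above its control mean of 2858 ± 607 CPM.

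ZnO particles against ZnSO4 is the comparison of the series most like this one, and it shares no library with it. It called 4308 of the same 10012 models (43%), 2261 higher and 2047 lower. The doses and metals differ, so the values are set side by side. Of the 94 models at least 4-fold lower with Fe2O3 particles than with FeCl3, 85.1% were also lower with ZnO particles than with ZnSO4 and 1.06% were higher. Of the 379 models at least 4-fold higher, 47.8% were also higher in zinc and 17.9% were lower. The median log2 fold change in zinc was -1.41 for those falls and 0.64 for those rises. Over all models tested 22.6% were higher and 20.4% lower in zinc.

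Smaller iron differences were counted in the same way. Models 2-fold to 4-fold lower in iron were lower in zinc in 66.3% and higher in 1.79%, while models 2-fold to 4-fold higher in iron were higher in zinc in 38.6% and lower in 10.1%. Below 2-fold, models higher in iron were higher in zinc in 53.8% and lower in 4.75%, and models lower in iron were lower in zinc in 34.7% and higher in 4.98%. Of the models not called in iron, 18.7% were higher and 11.7% lower in zinc. The zinc split depends on the scaling and on the libraries in the fit. With total counts only, 1287 models were higher, and leaving out any 1 ZnO library, or ZnSO4 replicate 1 or 2, gave 1296 to 1386. Leaving out an iron library also moved it, to 1833 higher without Fe2O3 particle replicate 3 and 1787 without FeCl3 replicate 1. Over 21 alternatives, which include leaving out each zinc library, 35.6% to 53.4% of the models at least 4-fold higher in iron were higher in zinc. Over the same alternatives 83.5% to 95.8% of those at least 4-fold lower in iron were lower in zinc.

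**Figure D5:**
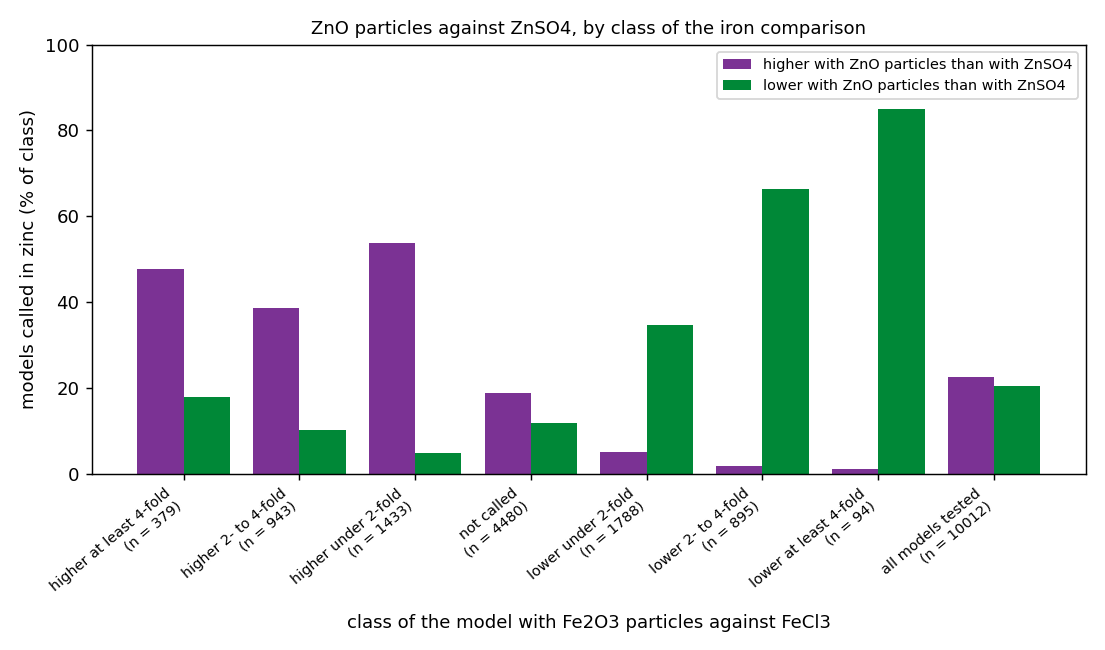
Percent of models called in either direction between ZnO particles and ZnSO4 (y axis), in classes of the Fe2O3 particle against FeCl3 comparison (x axis, with the number of models), and over all models tested. Models at least 4-fold lower in iron were lower in zinc in 85.1%, and models at least 4-fold higher in iron were higher in zinc in 47.8%.

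The test of the difference between the metals called 2829 models (28.3%). It is coded as particle minus salt in zinc, less particle minus salt in iron, so a negative value means that the zinc difference was the smaller in the signed sense. Among the 4 printed models, wlab.230984.1 had a log2 fold change of 4.76 in iron and 1.38 in zinc (SE 0.524). The zinc call was lost under 12 of 21 other settings, with values from 0.89 to 1.52. The corresponding values of wlab.1800.1 were 4.68 in iron and 2.22 in zinc (SE 0.23). For wlab.243021.1 they were -3.41 in iron and -0.63 in zinc (SE 0.296), and for wlab.248033.1 -3.39 in iron and -0.77 in zinc (SE 0.398). Neither was called in zinc, although 4 of 21 other settings called the first and 1 of 21 called the second. In wlab.243021.1 the zinc groups were close, with 1355, 1429 and 1554 CPM for ZnO particles, against 3288, 1901 and 1517 CPM for ZnSO4, so that only ZnSO4 replicate 1 stood far above the rest. In all 4 the difference between metals itself was called. Since these models were picked for their large difference in iron, a smaller one in zinc is favoured by the choice.

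The 10 largest rises and 10 largest falls under the rule for printed models, which leaves out some scarcer or overlapping models with larger fold changes, were followed into zinc. In zinc, 8 of the 10 rises were called higher, 2 were not called and none was lower, and log2 fold changes ran from 0.22 to 3.99. Of the 10 falls 5 were called lower in zinc and 5 were not called, with log2 fold changes from -2.75 to -0.63. The difference between the metals was called in 8 of the 10 rises and in 8 of the 10 falls. The shares over all models were 22.6% higher and 20.4% lower in zinc, and 28.3% for the difference between the metals. Picking models by a large difference in iron favours this last call. The rises with ranks 3 and 4 kept most of their size in zinc, with log2 fold changes of 4.67 and 4.60 in iron and 3.68 and 3.99 in zinc. Likewise the falls with ranks 5 and 7 had -3.20 and -3.15 in iron and -2.62 and -2.75 in zinc.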

How the data were processed

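The values are raw counts per gene model, whole numbers in 1 table for 15 libraries, deposited by the authors without normalization. Per the submitters' processing notes the tools include CASAVA 2.17, Trim Galore 0.4.0 and RSEM 1.3.0 (STAR is named with no version), and per the labels' protocols the libraries were poly(A)-selected. The table's own name calls the counts HTSeq counts, so the counting program is not settled. The sources used here give no genome build, annotation or strand handling. The table has 10300 rows. Of these, 3 identifiers stand on 6 rows, which were kept apart, and 29 models carry a mark for a duplicate. RefSeq lists 10125 genes for the species, and 0 identifiers matched, so gene lists by function were not used.

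The tests ran under R 4.3.3, with edgeR 4.0.16 for every main result. filterByExpr with a minimum count of 10 kept 10012 models. TMM factors were used and all 15 libraries entered 1 quasi-likelihood fit with group as the only term (common biological coefficient of variation 17.3%). Benjamini-Hochberg adjustment covered all models, and 0.05 was the limit for a call. SE was taken as the size of the log2 fold change over √F, and intervals use its t quantile. Log2 CPM for distances had a prior count of 2. The printed models are the first 2 in each direction among 2003 higher and 2216 lower models that were called, did not overlap and averaged at least 5 CPM. The steps were run on counts simulated from this fit, with differences set in a small part of the models of at least 5 CPM. The real contrast called 55.3% of the models, so that run checks the code and not these calls. Alternatives used DESeq2 1.42.0, limma 3.58.1, other scalings, filters and samples, a replicate block and leaving out each library. Alternatives for classes of models were added after the data had been seen. The members, classes and tests were chosen with earlier results of these data known.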

Additional observations from a re-analysis of the deposited data

Results flagged for a closer look

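The difference between particle and salt was not the same for iron and zinc. The test of that difference, coded as zinc less iron, called 2829 models (edgeR quasi-likelihood, adjusted p of 0.05), and 1978 of them had the larger absolute difference in iron. All 4 printed models were among them. The value was -3.37 (SE 0.763) for wlab.230984.1 and -2.47 (SE 0.347) for wlab.1800.1, both less raised by ZnO particles over ZnSO4 than by Fe2O3 particles over FeCl3. It was 2.78 (SE 0.425) for wlab.243021.1 and 2.62 (SE 0.567) for wlab.248033.1, both less lowered in zinc. Their edgeR adjusted p ran from 0.000137 to 0.00429. These 4 models were picked for their large difference in iron, which favours a smaller one in zinc. Their values are therefore a description and not separate support for a difference between the metals.

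Of the 10012 models tested, 337 were called in opposite directions for the metals, with the difference between metals called as well. In 231 of them Fe2O3 particles were above FeCl3 and ZnO particles below ZnSO4, with median log2 fold changes of 1.45 in iron and -1.19 in zinc. In 106 the reverse held, with medians of -0.58 in iron and 0.55 in zinc. The model with the widest gap among the 231 averaged 43.3 ± 8.39 CPM with Fe2O3 particles and 5.26 ± 1.4 CPM with FeCl3, against 37.1 ± 2.75 CPM with ZnO particles and 182 ± 79.2 CPM with ZnSO4 (SD, n = 3 each). Both particle groups were alike in this model and the salts lay on either side of them. In the widest of the 106, means were 29.1 ± 12.7 CPM with Fe2O3 particles and 139 ± 52.9 CPM with FeCl3, and 92.3 ± 30.9 CPM with ZnO particles and 34.4 ± 8.41 CPM with ZnSO4. The doses of iron and zinc differ, so metal and dose cannot be told apart. The 337, 231 and 106 come from the main fit and were not followed across the alternatives. The zinc calls they need did move: 1287 to 2352 models were higher and 1816 to 2910 lower in zinc over 21 alternatives.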

How the results depend on the processing

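The number of models called between Fe2O3 particles and FeCl3 stayed between 4290 and 5745 in the alternatives run, apart from the test against a 1.5-fold difference, which called 2553. Leaving out any 1 iron library gave 4869 to 5526 models, 2406 to 2751 of them higher and 2434 to 2775 lower. At least 2-fold differences then numbered 1275 to 1437 higher and 909 to 1076 lower. A mean of at least 5 CPM, which tests fewer models, left 630 models at least 2-fold lower, beside 1032 higher. With only the 6 iron libraries 4915 models were called, 2582 higher and 2333 lower, and with total counts only 2350 were higher and 2862 lower. Deviations of same-numbered iron libraries from their group means correlated at -0.171, 0.284 and -0.451 across models. With 3 libraries a side these values cannot decide whether the replicate numbers pair cultures. Replicate 1 was the lowest library of every group in wlab.230984.1 and the highest of every group in wlab.248033.1. In wlab.1800.1 and wlab.243021.1 it held no such constant place. A fit with the replicate block called 5607 models and changed no call of the printed models between particles and FeCl3. Those 4 kept their direction and call in the 16 alternatives run for them, which do not include the stricter threshold and the test against 1.5-fold, with log2 fold changes of 4.40 to 4.99 for wlab.230984.1, 4.48 to 4.80 for wlab.1800.1, -3.53 to -3.23 for wlab.243021.1 and -3.87 to -3.07 for wlab.248033.1. The difference between metals was called in 2038 to 3101 models, and ZnO particles against ZnSO4 in 3473 to 4743. Among the values followed for the 4 printed models, no called result turned its direction. The direction of other single models was not followed across the alternatives. The majority direction in zinc did turn, from 2261 higher and 2047 lower to 1287 higher and 2768 lower with total counts only. It also turned with DESeq2 size factors (2118 higher, 2212 lower) and in DESeq2 (2262 higher, 2350 lower). Without Fe2O3 particle replicate 3 it was 1833 higher and 2910 lower, and without FeCl3 replicate 1 it was 1787 and 2793. Leaving out any other iron library kept the majority higher. Leaving out any 1 ZnO library, or ZnSO4 replicate 1 or 2, turned it. The folds of the near-silent models rest on 3 libraries a side and on 12 to 46 reads per FeCl3 library.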
